A study of Mus musculus with 8 samples.

Results

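A-kinase anchoring proteins (AKAPs) are scaffolds that hold protein kinase A, the kinase switched on by cAMP, at a chosen place in the cell. Each carries an amphipathic helix that binds the regulatory subunits of the kinase and a second, unrelated part that binds a membrane, an organelle or the cytoskeleton. In vascular smooth muscle cells (VSMCs) cAMP and protein kinase A lower contractile tone, and anchoring keeps the kinase near ion channels, phosphodiesterases and phosphatases. N6-methyladenosine (m6A) is written into RNA by a complex of METTL3 and METTL14, mostly at an A inside a GGAC-type word, and is known for its concentration near stop codons and in long internal exons.

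The genes examined were Akap1, Akap2, Akap6, Akap8, Akap9, Akap10, Akap11, Akap12 and Akap13, 9 genes listed by name, of which 8 had at least 1 peak summit in an annotated exon, out of 6075 such genes in the series. Of the 21622 genes with a complete coding transcript 25.5% had one. Akap1 was chosen by its values in the contrast of control with knockdown cells, because 1 of its regions was present in the control lists and absent from the knockdown lists, so its values in that contrast are given as a description without a test. Primary VSMCs from the descending aorta of adult C57BL/6J mice carried either a nontargeting lentiviral shRNA (shCTR) or one against Mettl14 (shMettl14), and nothing else distinguished the groups in the labels. m6A-RIP-seq, in which an antibody enriches RNA fragments with m6A, was performed on replicates A and B of each shRNA, with an input library for each. The series holds 8 samples, and the 4 IP samples have 1 peak list each, called against their own input. The sources do not say whether A and B were separate cultures, so the p-values below measure the spread between these samples, which may be technical.

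The lists held 11158 and 8655 summits for shCTR A and B and 13675 and 9256 for shMettl14 A and B. The pileup, the number of IP fragments over a summit, was recovered from the deposited values and had a median of 16 in shCTR A and B alike, of 14 in shMettl14 A and of 13 in shMettl14 B. Below, values given as a run of 4 follow the order shCTR A and B, then shMettl14 A and B. At this depth the lack of a peak means that none was detectable, not that m6A was absent. Mettl14 itself had no exonic summit in any list, and summits say nothing of how much transcript was present, so the knockdown could not be checked here. Of 9 smooth muscle markers 3 had exonic summits (Lmod1, Cald1 and Myh11), with Acta2, Tagln and Cnn1 among the 6 at 0, while 3 of 5 endothelial markers (Cdh5, Pecam1 and Kdr) and 1 of 4 macrophage markers (Csf1r, 1 summit) had them, beside 25.5% of coding genes. The part of other cells in the AKAP peaks was not tested.

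AKAP exons held 137 summits over the lists, 32 and 29 in shCTR A and B and 48 and 28 in shMettl14 A and B. Only shMettl14 A stood apart, and without that list the shMettl14 count was 2.5 summits below the shCTR mean in place of 7.5 above it. The AKAP share of all summits was 0.287%, 0.335%, 0.351% and 0.303% in the 4 lists. Counted as distinct intervals, the 4 lists held 22, 21, 23 and 21. AKAP summits had a median pileup of 29, 27, 24 and 18 against 16, 16, 14 and 13 over all summits, and both sets had their lowest median in shMettl14 B. The gap rested on Akap2 and Akap12: without the summits of both, a setting added after seeing the data, the AKAP medians were 18, 18, 14 and 12, close to those over all summits.

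Intervals of the 4 lists that shared at least 1 base were merged into 11361 regions, of which 26 held an AKAP summit. In all 4 lists 15 of the 26 AKAP regions were found, beside 4929 of all regions, or 43.4%. Both shCTR lists and neither shMettl14 list held 2 AKAP regions (control-only), 1 in Akap1 and 1 in Akap11, against 1.71% of all regions. Both shMettl14 lists and neither shCTR list held 2 (knockdown-only), 1 in Akap1 and 1 in Akap13, against 1.79%. The Akap1 control-only region is the one the gene was selected on, and its count is read no further.

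To describe the sequence near the summits, the GGAC word (GGAC followed by A, C or T) closest to the central summit is printed. It is given for 1 region of each AKAP gene that held such a word within 50 nt. The region was not chosen by a stated rule. Akap9 had another region with a word 12 nt from its central summit, against 27 nt for the region shown. Only the transcript strand was searched. Each line is 25 bases of that strand in GRCm38, read from the GENCODE M21 transcripts, with the word in capitals.
Akap1, exon 2, chr11:88844292-88844316, minus strand: tcagacttagGGACCgaggatggat
Akap2, exon 3, chr4:57856138-57856162, plus strand: aggaggagctGGACTcagggttaga
Akap8, exon 5, chr17:32316503-32316527, minus strand: acgactgtcgGGACCcagccccaga
Akap9, exon 39, chr5:4064477-4064501, plus strand: agatggaaaaGGACAggcaggttca
Akap11, exon 6, chr14:78510314-78510338, minus strand: gctaagtttaGGACCcacagttttt
Akap12, 3′ UTR, chr10:4358525-4358549, plus strand: gctgctgttgGGACCttgagaccaa
Akap13, exon 7, chr7:75610967-75610991, plus strand: aagctttcctGGACAaaggtgtcac
The word in Akap8 lay 4 nt and that in the Akap12 3′ UTR 6 nt from the central summit, the shortest distances among the AKAP regions. The only Akap10 region held no such word in its 101-nt window, and neither did the Akap9 region in exon 30 that is described below. Other AKAP regions also lacked such a word around the central summit, among them the Akap2 region across the stop codon and the Akap13 knockdown-only region. A match is a description of the sequence and not a mapped site. Over the AKAP summits placed in the chosen coding transcripts, which leaves out the Akap1 control-only summits, the words occurred in 48.4%, 57.1%, 35.4% and 50% of windows, against 50.9%, 54.3%, 47.9% and 52.0% for summits of all genes placed in the same way.

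Where m6A lay within the transcripts set the AKAP genes beside the rest of the series. AKAP summits lay within 200 nt of the stop codon in 13.6% ± 0.98 of cases in shCTR and 10.6% ± 0.21 in shMettl14 (SD, n = 2 lists each), against 26.8% ± 0.028 and 26.3% ± 1.2 for all genes. They lay in coding sequence in 91.6% ± 1.8 and 92.3% ± 0.84, against 66.4% ± 1.2 and 65.6% ± 0.13. In the last exon lay 15.2% ± 1.3 and 13.4% ± 1.3 of AKAP summits, against 64.1% ± 0.45 and 64.3% ± 0.70. The AKAP values were outside the range of the all-gene values for these 3 measures in every list, and the AKAP summits were mostly in internal coding exons. For exons longer than 1000 nt the 2 sets had close values, 78.0% and 78.9% of AKAP summits against 78.5% and 78.7%.

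**Figure D1:**
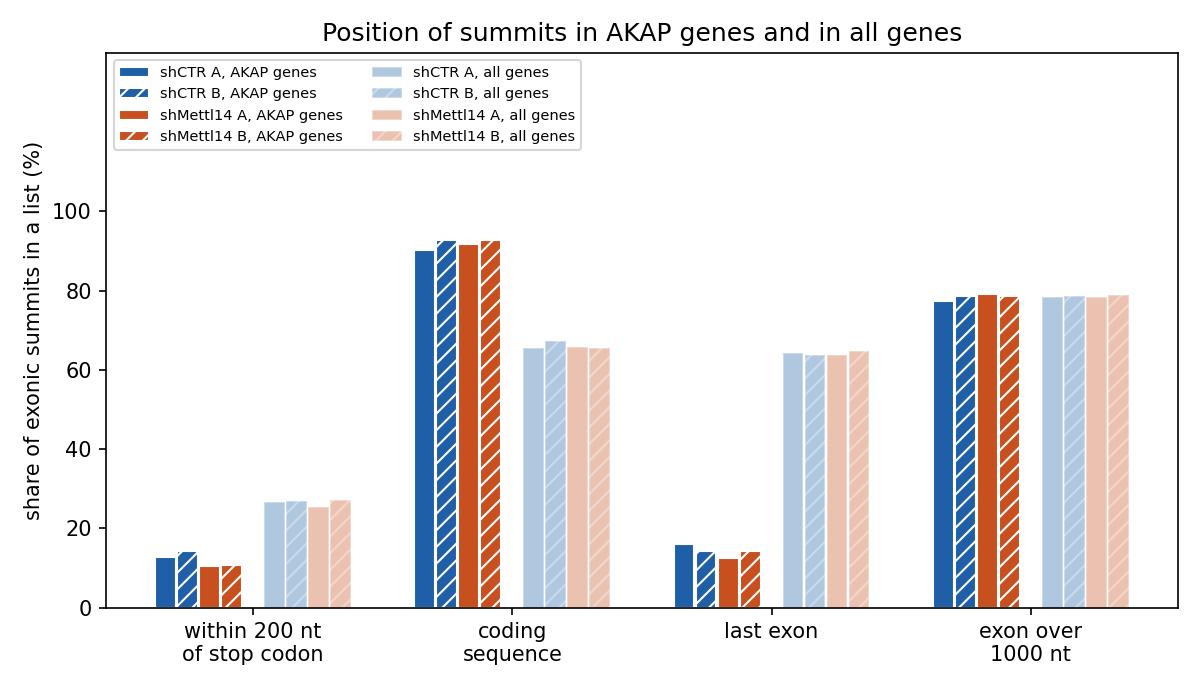
Share of exonic summits (%, y axis) within 200 nt of the stop codon, in coding sequence, in the last exon and in exons over 1000 nt, for each list; dark bars are AKAP genes, pale bars all genes, hatching marks replicate B. The 4 AKAP bars are at 10.4 to 14.3% near the stop codon, below the 25.4 to 27.2% of all genes, and at 90.3 to 92.9% in coding sequence, above the 65.5 to 67.3% of all genes.

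The AKAP transcripts themselves differ from the others in layout. Coding sequence made up 72.5% of the length of the 8 chosen AKAP transcripts (1 coding transcript per gene, the one with the longest coding sequence) and 51.0% in the 5516 genes with a summit and such a transcript. The last exon held 26.8% of the AKAP length and 54.4% of the other. The transcripts chosen for Akap1 and Akap11 carry no annotated 3′ UTR, so no summit could be placed there in these genes. The AKAP share near the stop codon also rested on Akap2, and without that gene it was 6.95% over the 4 lists in place of 12.1%.

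**Figure D2:**
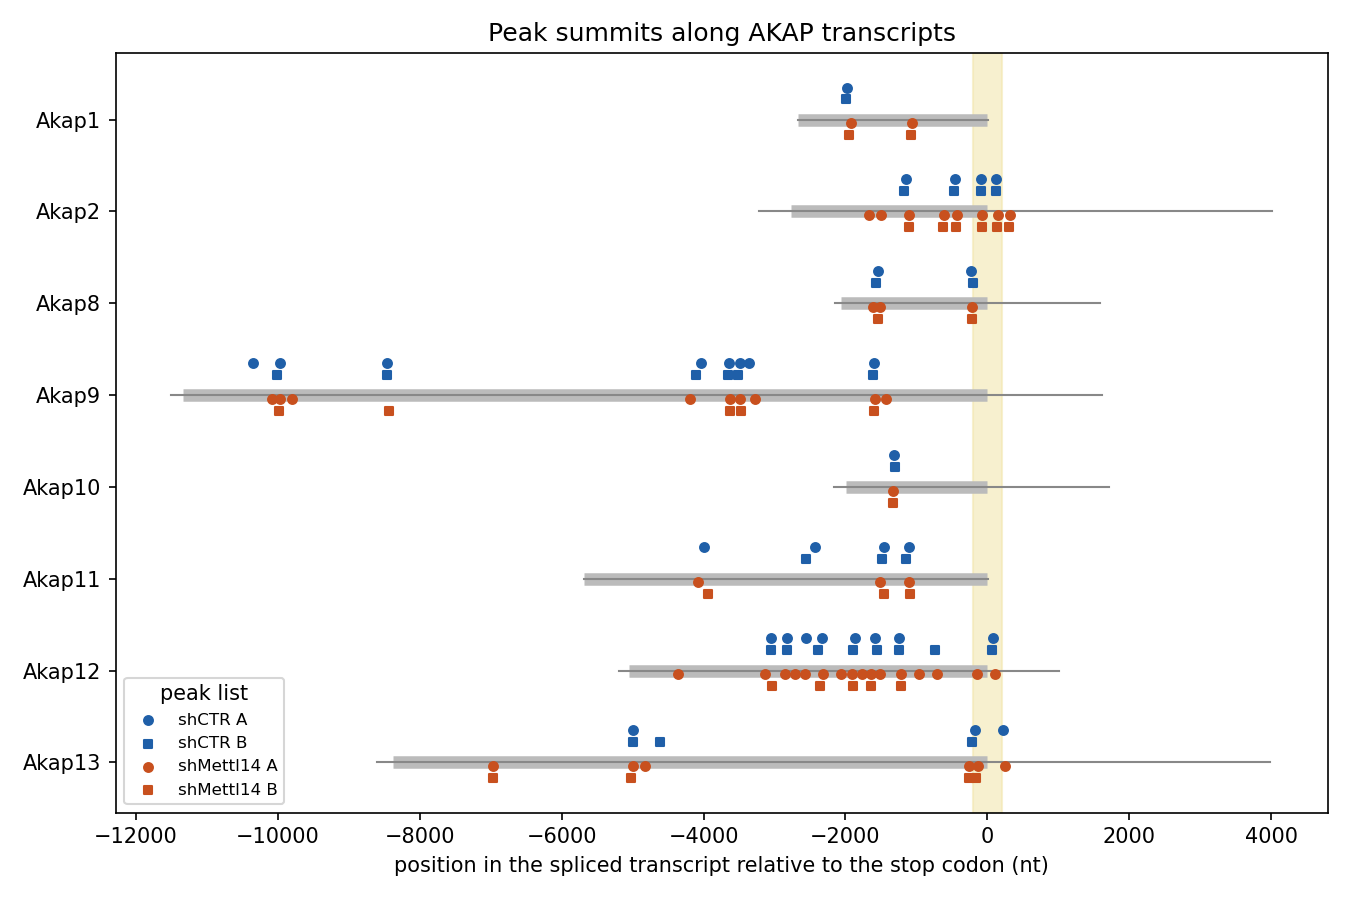
Position of each AKAP summit (nt from the stop codon in the chosen spliced transcript, x axis) by gene; grey blocks are coding sequence, thin lines untranslated sequence, and the yellow band marks 200 nt on either side of the stop codon. Most summits lie in coding sequence far upstream of the band, and Akap2, Akap8 (shCTR B), Akap12 and Akap13 have summits inside it.

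Among the AKAP genes, Akap1 (ENSMUSG00000018428.15, chr11:88830792-88864586, minus strand) tethers protein kinase A to the outer mitochondrial membrane. It had 2 exonic summits in each of the 4 lists, but the places differed. One region in exon 2, a 1607-nt coding exon, was present in all 4 lists, with pileups of 30 and 27 in shCTR A and B and of 22 and 20 in shMettl14 A and B. Its within-list percentile of fold enrichment, where 100 is the strongest summit of a list, was 72.3, 53.6, 49.6 and 29.7. Both shMettl14 values were below both shCTR values.

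The Akap1 control-only region, chr11:88841223-88841427, had pileups of 13 in shCTR A and 12 in shCTR B, at percentiles of 64.9 and 70.1. Its mean percentile of fold enrichment, 67.5, was the highest of the 134 control-only regions that lie in exons of a single gene. The gene was chosen by this region, so that place is a description and no support. By pileup its percentiles were 38.8 and 34.3 in shCTR A and B. Regions close to it in mean percentile of fold enrichment were those of Myom1 at 66.8 and Arhgap5 at 62.8. The authors' replicate overlap for shCTR held the region, and that for shMettl14 did not.

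This was the only AKAP region whose summits lay outside the chosen coding transcript. Its summits, at 88841318 and 88841311, lay 16 and 9 bases inside the 2956-nt intron between exons 2 and 3, and counted as exonic through 1 of the 6 annotated Akap1 transcripts, one classed as a retained intron. Of the called intervals, 31.7% in shCTR A and 39.0% in shCTR B covered exon 3, a 134-nt coding exon, starting at its first base. The knockdown-only Akap1 region, chr11:88844275-88844404, sat at the other side of the same intron, at the 3′ end of exon 2. It had pileups of 14 in shMettl14 A and 15 in shMettl14 B, at percentiles of 41.4 and 65.9, and its summits lay 65 and 78 nt before the first base of exon 3 in the spliced transcript. In the genome the control-only and knockdown-only regions were 2847 bases apart, and along the spliced transcript 16 bases of exon 2 separated them.

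The GGACC word printed for Akap1 lies inside the knockdown-only region, and its A is 46 nt from the first base of exon 3. No such word was found within 50 nt of the control-only summits in the unspliced sequence. When peaks within 200 nt along the spliced transcript were counted as shared, a setting chosen after seeing the data, the region was no longer control-only. With a genomic distance of 200 nt, with a −log10 q of at least 3 or with equal numbers of top summits per list, it stayed in both shCTR lists and no shMettl14 list. Of the 135 control-only regions that touched an exon of a chosen transcript, 6 (4.44%) had peaks of both shMettl14 lists within 200 spliced nt but at least 200 nt away in the genome, among them those of Akap1, Ahdc1 and Tnc. Of 132 such knockdown-only regions 6 (4.55%) had this arrangement, among them those of Akap1, Pcnt and Pde4dip, and Akap1 alone was in both sets. These genes were named after their values were seen.

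**Figure D3:**
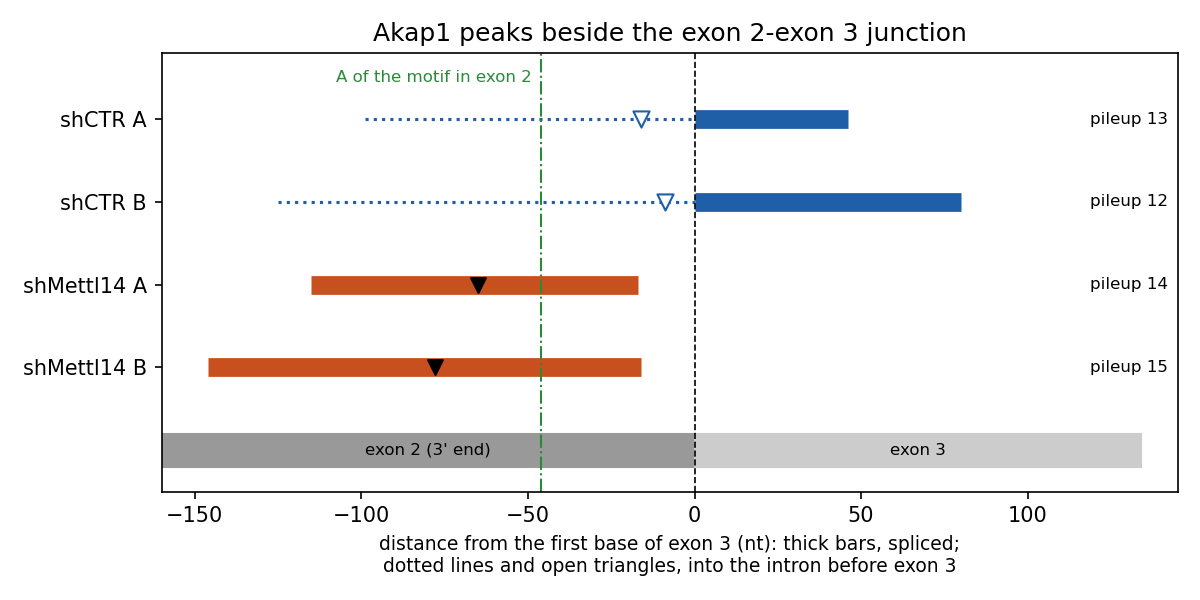
Akap1 peaks beside the exon 2-exon 3 junction, in nt from the first base of exon 3 (x axis), 1 row per list; thick bars are interval parts in exons, dotted lines and open triangles the parts and summits in the intron before exon 3, filled triangles summits in exon 2. The shCTR bars begin at the junction and the shMettl14 bars end 17 and 16 nt before it, with pileups of 12 to 15.

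Akap10 (chr11:61871307-61930252, minus strand) binds both classes of regulatory subunit and carries RGS-like domains. It had 1 summit per list, in the 558-nt coding exon 4, with pileups of 30, 23, 17 and 18 over a local background of 0.485, 0.207, 0.301 and 0.151 fragments. Fold enrichment was 20.9, 19.9, 13.8 and 16.5. The region ranked high in each list, at percentiles of 97.8, 96.5, 91.0 and 92.5, and both shMettl14 values were below both shCTR values. On normal scores of the rank its difference, shMettl14 minus shCTR, was -0.64 (SE 0.49), with an adjusted p of 0.999 by limma.

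Of the anchors at the cell cortex and the actin cytoskeleton, Akap12 (gravin, a membrane scaffold that also binds protein kinase C) had the most summits of the family. Its 8, 8, 16 and 5 summits made up 27.0% of all AKAP summits, and 38 genes, Akap12 included, had as many or more in total. Most lay in 1 merged region of exon 3, a coding exon of 4798 nt, which held 7, 7, 13 and 5 summits. The strongest summit there had pileups of 116, 104, 78 and 77 and percentiles of 65.5, 75.4, 54.3 and 79.2. The groups overlapped, and the rank difference was -0.12 (SE 0.52, limma adjusted p = 0.999), which turned to 0.39 without shMettl14 A and 0.14 without shCTR B. A separate region lay at the start of exon 4, with summits 76, 59 and 103 nt into the 3′ UTR and pileups of 57, 31 and 34 in shCTR A, shCTR B and shMettl14 A, and no peak was called in shMettl14 B. Each of the other 2 Akap12 regions was found in shMettl14 A alone, at percentiles of 2.57 and 3.19.

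Akap2 (chr4:57717657-57896984, plus strand) encodes an actin-associated anchor. All of its 22 summits also lay in exons of Pakap, an overlapping locus that joins the neighbouring Palm2 to Akap2, so the fragments cannot be assigned to one gene. Its last exon held the AKAP region with the highest mean percentile over the 4 lists, chr4:57892721-57893628, across the stop codon and the start of the 3′ UTR. The percentiles were 94.5 and 97.9 in shCTR A and B and 96.5 and 99.9 in shMettl14 A and B, with fold enrichments of 17.6, 22.3, 17.2 and 32.1. The groups overlapped, with a rank difference of 0.57 (SE 0.54, limma adjusted p = 0.999) that became -0.14 without shMettl14 B. The pair of regions in exon 3 had percentiles of 83.3, 78.9, 83.2 and 75.8 and, nearer the stop codon, of 76.2, 79.0, 65.1 and 70.6. In the second of them both shMettl14 values were below both shCTR values.

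Akap9, the large anchor of the centrosome and the Golgi, had 8, 6, 9 and 5 exonic summits, in coding exons 7, 30, 31 and 39 of 48. It was also the only AKAP gene with summits outside every annotated exon of the gene, 1, 1, 2 and 0 in the 4 lists. Its region with the highest mean percentile, in exon 30 and 3647 nt before the stop codon in shCTR A, had pileups of 42, 45, 43 and 41 and percentiles of 86.9, 91.2, 88.2 and 92.4. The groups overlapped, and the rank difference of 0.03 (SE 0.50, limma adjusted p = 0.999) became -0.17 without shCTR A and -0.22 without shMettl14 B. Exon 7 held 2 regions. In the one found in all 4 lists both shMettl14 percentiles, 40.6 and 38.4, were above both shCTR percentiles, 27.3 and 22.7. The other had percentiles of 66.1 and 39.4 in shCTR A and B and 40.6 in shMettl14 B, and no peak was called in shMettl14 A. In exon 39 the order was the opposite, with 83.4 and 77.6 in shMettl14 against 95.0 and 83.9 in shCTR.

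The nuclear anchors were Akap8, which binds chromatin and the nuclear matrix, and Akap6, known from the nuclear envelope of muscle cells. Akap6 had no exonic or intronic summit in any list. Akap8 had a region in exon 5 with pileups of 18 and 14 in shCTR A and B and of 10 and 11 in shMettl14 A and B, at percentiles of 84.9, 64.5, 52.1 and 54.1. Both shMettl14 values were below both shCTR values, and the rank difference was -0.72 (SE 0.50, limma adjusted p = 0.993), or -0.42 without shCTR A. Its other region, 198 to 229 nt before the stop codon in exon 14, had the lowest mean percentile of the AKAP regions in all 4 lists, with 11.5, 35.02, 23.4 and 7.79, and the groups overlapped.

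Akap11 binds protein phosphatase 1 and glycogen synthase kinase 3 on vesicles. All of its regions lay in exon 6, a coding exon of 4441 nt. The region in all 4 lists had percentiles of 56.7, 51.2, 52.7 and 36.7 and a rank difference of -0.25 (SE 0.49, limma adjusted p = 0.999), with overlapping groups. The control-only region of this gene, chr14:78511664-78512072, was weak, with pileups of 11 in shCTR A and 8 in shCTR B at percentiles of 19.9 and 6.89.

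Akap13 combines kinase anchoring with an exchange factor that activates RhoA, a driver of smooth muscle contraction. Its region in exon 37, 132 to 217 nt before the stop codon, had pileups of 28, 28, 24 and 23 and percentiles of 71.8, 82.7, 70.1 and 94.6. The groups overlapped, and the rank difference of 0.28 (SE 0.54, limma adjusted p = 0.999) became -0.44 without shMettl14 B and -0.02 without shCTR A. The knockdown-only region of exon 7, chr7:75608971-75609159, had pileups of 14 in shMettl14 A and 12 in shMettl14 B at percentiles of 62.6 and 57.8. In the same exon a region of all 4 lists had percentiles of 66.0, 52.4, 58.3 and 26.4.

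**Figure D4:**
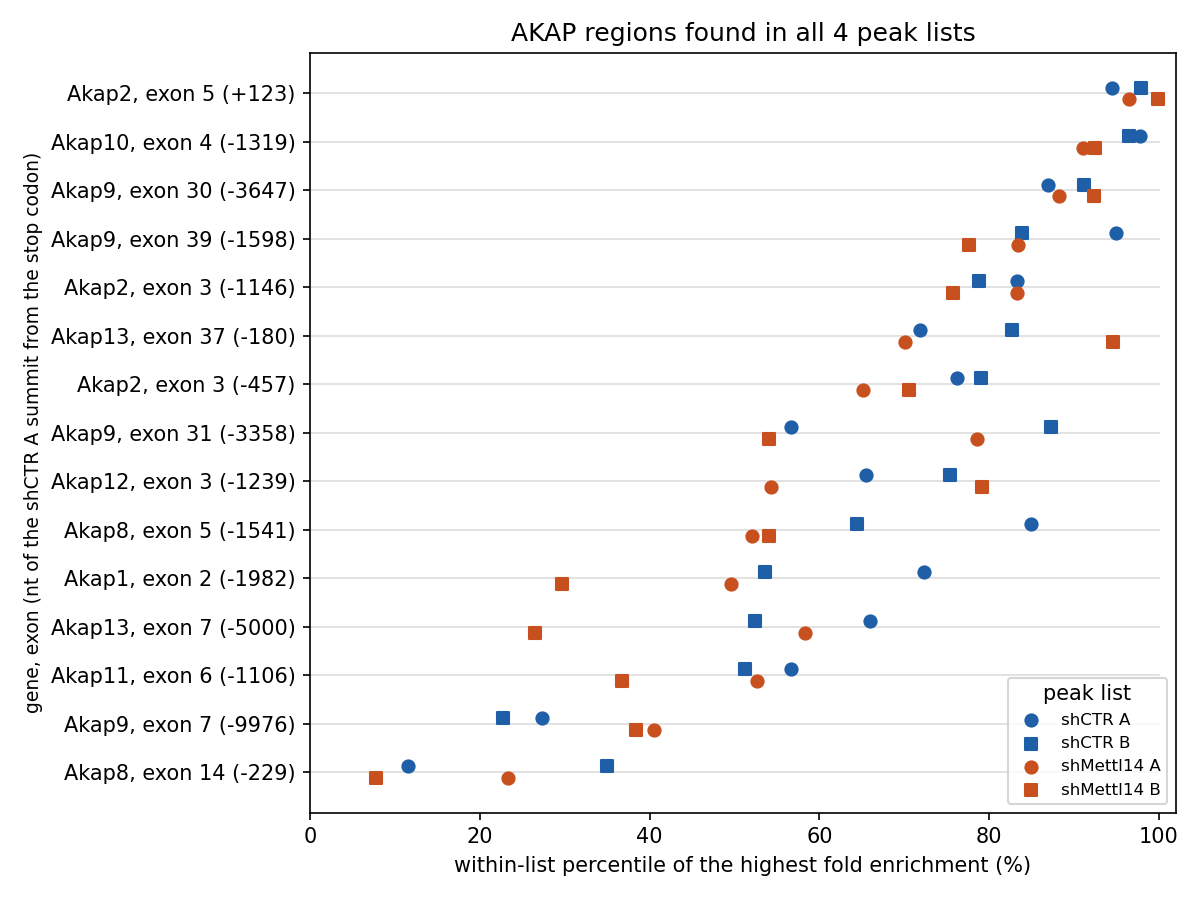
Within-list percentile of the highest fold enrichment (x axis, %) of the 15 AKAP regions found in all 4 lists, with the exon and the distance of the shCTR A summit from the stop codon (nt) on the y axis; each point is 1 list. In 5 regions (Akap1 exon 2, Akap2 exon 3 at -457, Akap8 exon 5, Akap9 exon 39 and Akap10 exon 4) both shMettl14 points lie left of both shCTR points, and in the Akap9 exon 7 region shown both lie right of them.

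Whether the rank of AKAP regions differed between the groups was tested in the fit over all 4929 regions present in the 4 lists. None of the 14 AKAP regions outside Akap1 passed an adjusted p of 0.05, and neither did any other region (0%). None passed an unadjusted p of 0.05, against 243 regions or 4.93% of all, and Fisher's exact test on recovered pileups called 0 regions after adjustment, with 126 at an unadjusted p under 0.05. Of the 14, 10 had a lower and 4 a higher rank in shMettl14, with a median difference of -0.23, beside 2458 lower and 2471 higher and a median of 0.00 over all regions. Leaving out 1 list moved this split. It was 12 of 14 lower (median -0.31) without shCTR A, 7 of 15 (0.14) without shCTR B, 10 of 15 (-0.18) without shMettl14 A and 15 of 16 (-0.33) without shMettl14 B. Among all 15 regions, both shMettl14 percentiles were below both shCTR percentiles in 5, against 14.3% of all regions, and above them in 1, against 17.3%. Without Akap1, which was selected on this contrast, they were below in 4 of 14. An exact permutation test of 2 against 2 lists cannot give a p below 0.333. A loss of m6A that every region shared would not alter these ranks.

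Around the family, counts are read beside the same 25.5% of coding genes with an exonic summit. Of the 7 other Akap-named genes 3 had summits, led by Akap5 with 6, 5, 8 and 7 summits, followed by Akap17b with 14 and Akap7 with 4 in total. Of 14 anchoring proteins under other names 7 had them, with Acbd3 (12 summits), Pcnt (11) and a tie of Nbea and Synm (10 each) ahead, and Pcnt held 1 knockdown-only region. Of 9 genes for subunits and inhibitors of protein kinase A only Prkar2a, a regulatory subunit, had summits, 1 per list. Of 25 genes of cAMP synthesis and breakdown 13 had summits, with the cyclases Adcy6 (15) and Adcy9 (14) and the phosphodiesterase Pde4d (12) ahead. Of 9 cAMP-responsive factors 7 had them, with 28 in Crebbp, 5 in Creb1 and 5 in Crtc3. Of 10 other enzymes that anchoring proteins bind 5 had them, with 10 in Prkce, 10 in Gna12 and 7 in Gna13. No region of these genes that was found in all 4 peak lists passed the rank test in either direction, as none of the 4929 did. Their other regions were not tested.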

How the data were processed

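The sample titles gave the groups and the letters A and B. Per the labels and the study's methods, the authors aligned single-end reads to mm10 (GRCm38) with STAR, used SAMtools to keep unique reads and ran MACS2 on each IP with its input as background, whose version and options are not given in the sources used here. The deposited lists hold, per summit, a fold enrichment (a ratio of IP over local background), a −log10 p-value and a −log10 q-value, of at least 2.005. The authors also deposited 1 interval file per shRNA with the overlap of the replicates. Replicates were not pooled in the lists, and totals of reads were not analysed here.

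The members and gene lists were chosen with earlier results of these data known. A summit was assigned to an AKAP gene when it lay in an exon of any of its transcripts (GENCODE M21), and its place was read in the complete coding transcript with the longest coding sequence. The MACS2 relations of pileup and background were solved for a whole-number pileup, which matched the deposited −log10 p within 0.000151. Fisher's exact test on these pileups summed the replicates, so it takes in counting error only and not the variation between samples. Intervals sharing at least 1 bp were merged. For regions in all 4 lists the highest fold enrichment was ranked within each list, turned into a normal score and tested with limma 3.58.1 (R 4.3.3, lmFit and eBayes, two-sided, no replicate block) with Benjamini-Hochberg adjustment over 4929 regions. The code was tested on simulated data with 200 of 4929 regions shifted. The rank test called 17.5% of regions shifted by 1 log2 unit, 90% of those shifted by 2 and 75.5% of those shifted by 4. For each AKAP gene but Akap1 the test value was printed for the region with the highest mean percentile, and for any region past an unadjusted p of 0.05. Beside the Akap1 control-only region the 3 control-only regions of single genes with the closest mean percentile were to be named, of which 1 is not reported here, and from each other list the 3 genes with the most summits. Python 3.11.15, pandas 2.3.3 and scipy 1.17.1 were used. Alternatives were a replicate block, other measures and scales, lists of equal size (8655 summits), a −log10 q of at least 3, interval midpoints, Fisher's exact test on pileups and leaving out each list.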

Additional observations from a re-analysis of the deposited data

How the results depend on the processing

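The count of 0 AKAP regions past the rank test was the same under the 10 alternatives, where the lowest adjusted p of any of them was 0.889. With the replicate letter as a block it was also 0. The labels give no pairing, and the correlation of same-letter deviations over 4929 regions was 0.0795. These do not settle whether a letter marks a shared batch. Without shMettl14 A 3 regions outside the family passed; with 1 list left in a group, that list was assumed to vary like the others. Leaving out each list in turn moved the AKAP summit difference between -2.5 and 17.5 and the share of AKAP summits near the stop codon between 11.3% and 12.6%. That share was 19.4% with a window of 400 nt and 6.95% without Akap2, the latter added after seeing the data. With lists of equal size the summit difference was 0.5, and without Akap12, also added after seeing the data, it was 5. The rank difference kept its sign in 49 of 56 alternative values of the 7 regions tested by name. It turned for Akap12 (between -0.62 and 0.39 over the left-out lists), Akap2 (-0.14 to 1.28), Akap9 (-0.22 to 0.27) and Akap13 (-0.44 to 1.003), and the cause was not tested. The Akap1 control-only region had 2 shCTR lists more than shMettl14 lists, and 0 more when distance was taken along the spliced transcript. The 2 lists a group and pileups of 30 or fewer fragments in most AKAP regions limit what these data can separate.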

Other observations

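The mean percentile of all summits of a gene differed between shMettl14 and shCTR by -16.3 percentile points for Akap2, -15.3 for Akap8 and -5.35 for Akap10. Akap10 had 1 summit per list, so its value restates the comparison of its region above and adds nothing to it. For Akap8 and Akap10 the difference was negative under each of the 7 alternatives run. The alternative with the strongest summit only gave the same -5.35 for Akap10 by construction. For Akap2 it was -7.46 without shMettl14 A, -25.2 without shMettl14 B and 1.97 when only the strongest summit of each list was used. The differences of -3.25 for Akap9, 1.17 for Akap11, -0.73 for Akap12 and 1.91 for Akap13 each turned in sign under at least 1 of the 7. Akap1 is left out, because its shCTR mean contains the region that the gene was chosen by. These values were not tested.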
